A study of Mus musculus with 12 samples.

Results

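Ribosome biogenesis and nucleolar genes were followed across naive CD4+ T cells and the Treg cells induced from them. The set held 59 genes, chosen by gene symbol in the probe-to-gene table of the array, out of 19057 genes with a probe assigned to 1 gene. For 56 of them such a probe was listed, and *Fbl*, *Npm3* and *Ddx18* had none under their symbol. Each gene was represented by its brightest probe. Of the 56 genes, 37 exceeded background on all 12 arrays, 9 on some arrays and 10 on none, where background is a log2 level of 6.22. A filter on low values, a probe brighter than its array's median on 2 or more arrays, left 52 members for testing. *Wdr12*, *Nop16*, *Utp20* and *Wdr36* did not pass it.

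Total RNA of each sample was hybridized to an Illumina Mouse WG-6 v2 array. All cells came from Foxp3GFP mice. Treg HAR cells were induced with low TGFb plus harmine (an alkaloid of plant origin and inhibitor of DYRK kinases), and Treg hi cells with high TGFb alone, on plates coated with antibodies to CD3 and CD28, with IL-2. Cultures of this kind were analysed at day 4 per the methods, and induced cells were FACS-sorted before RNA was taken. The third group was naive CD4+ T cells, for which the labels give no culture. Each treatment had 4 arrays, 2 from naive cells purified by FACS and 2 from naive cells purified by MACS, with replicates numbered 1 and 2. Because low TGFb was used only together with harmine, an effect of harmine and one of the TGFb dose cannot be told apart. Treg and naive cells likewise differ in stimulation, time and sorting at once, and these cannot be told apart in a comparison with naive cells. The labels do not say whether replicates came from separate animals or cultures. The p-values therefore reflect spread among arrays, which may be technical in part. Naive replicates 1 and 2 differed in *Eif2s3y* and *Xist* (values below), so they were not repeats of the same RNA. In bulk RNA, fewer cells that express a gene and less RNA per cell cannot be told apart.

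Ribosomes are built in the nucleolus. RNA polymerase I transcribes a long precursor of the ribosomal RNAs, small nucleolar ribonucleoproteins (snoRNPs) guide its methylation and pseudouridylation, and assembly factors cut, fold and package it into the small (40S) and large (60S) subunits before export. T cells enlarge their nucleoli when they leave the resting state, and many genes of this machinery are targets of the transcription factor Myc, which binds the E-box CACGTG.

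The promoters of the members are shown first, because that motif is a sequence feature that the choice of genes did not use. The RefSeq promoter table (GRCm38.p6, 250 bases before to 50 after each start) had an entry for 52 of the 59 members. CACGTG, which reads the same on both strands, occurred in 11 of these 52 members (21.2%). It occurred in 10.3% of the 12505 genes tested on the arrays that had an entry, and in 8.09% of all 27025 genes of the table. The 11 members were *Imp4*, *Nop2*, *Ltv1*, *Utp20*, *Pes1*, *Mybbp1a*, *Tsr1*, *Utp18*, *Rrn3*, *Wdr46* and *Wdr43*, and *Rrn3* had 2 matches. With the window narrowed to the 100 bases before the start, 4 of 52 members had a match (7.69%), against 4.88% of the genes tested. A match is a string of letters and not a measured binding site. Stretches of 150 bases before to 30 after the start are given for 4 members that hold the motif, with CACGTG in capitals. They were chosen after their values were seen, 3 with a positive difference between Treg groups and *Tsr1* as the lowest.
Imp4, chr1:34439679-34439858, strand +: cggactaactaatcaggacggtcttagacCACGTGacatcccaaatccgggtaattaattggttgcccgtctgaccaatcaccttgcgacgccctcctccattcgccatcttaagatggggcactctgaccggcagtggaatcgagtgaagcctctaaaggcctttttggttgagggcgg
Nop2, chr6:125131733-125131912, strand +: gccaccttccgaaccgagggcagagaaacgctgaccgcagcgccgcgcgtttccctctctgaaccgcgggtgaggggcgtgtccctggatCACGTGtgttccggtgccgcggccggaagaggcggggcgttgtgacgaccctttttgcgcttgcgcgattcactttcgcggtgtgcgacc
Wdr43, chr17:71616065-71616244, strand +: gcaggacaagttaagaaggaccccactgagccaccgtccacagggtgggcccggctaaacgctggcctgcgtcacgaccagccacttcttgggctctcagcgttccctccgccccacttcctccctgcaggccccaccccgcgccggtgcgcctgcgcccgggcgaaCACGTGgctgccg
Tsr1, chr11:74897930-74898109, strand +: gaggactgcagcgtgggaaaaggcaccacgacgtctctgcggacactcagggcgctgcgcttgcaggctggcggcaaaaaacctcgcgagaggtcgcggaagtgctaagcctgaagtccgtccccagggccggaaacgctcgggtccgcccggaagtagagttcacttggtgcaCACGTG
The motif began 121 bases before the start in *Imp4*, 60 bases before it in *Nop2*, and at bases 18 and 25 counted from it in *Wdr43* and *Tsr1*. In *Wdr43* the start of the promoter entry lies 37 bases inside the annotated edge of the gene. *Imp4* belongs to the U3 snoRNP that prepares the small subunit, *Nop2* is a methyltransferase of the large ribosomal RNA, *Wdr43* is an early small-subunit factor, and *Tsr1* is a late GTPase-like one. Of the 11 members with the motif 10 were tested, and their log2 difference between Treg HAR and Treg hi cells was positive for 6 and negative for 4 (*Tsr1*, *Rrn3*, *Pes1* and *Wdr46*), with a median of 0.11, against 42 positive of all 52 members tested. Several of these lay near 0, with *Pes1* and *Wdr46* at -0.01, *Rrn3* at -0.02 and *Utp18* at 0.01. *Tsr1* was above background on 4 arrays.

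Between 30.2% and 30.4% of probes exceeded background on each array. Quantile normalization gives all arrays the same distribution, so this share cannot tell whether their signal was alike before it. Precision is limited by how few arrays there were. The Treg markers *Il2ra*, at log2 levels of 9.56 to 10.32 in Treg HAR, 9.04 to 9.52 in Treg hi and 5.88 to 6.04 in naive cells, and *Gpr83* separated induced from naive cells. The *Foxp3* probe did not, at 6.71 to 7.40 in Treg HAR, 6.62 to 7.10 in Treg hi and 7.09 to 7.42 in naive cells. The naive arrays also carried signal of other cells. Summed linear signals of the 11 of 12 neutrophil and monocyte markers with a probe were 649 to 709 in Treg HAR, 699 to 727 in Treg hi and 2954 to 31463 in naive cells. Those of 8 of 10 B cell markers were 659 to 739, 757 to 866 and 1826 to 11077 in the same order of groups, and those of 6 of 8 erythroid markers 391 to 429, 386 to 412 and 1079 to 9049. *Eif2s3y* was at 8.07 and 8.08 on replicate 2 of the naive FACS and MACS groups, which had little *Xist* (5.76 and 5.84). On replicate 1 of these groups *Eif2s3y* was below background, at 5.96 and 6.07, and *Xist* was at 8.19 and 8.47. *Eif2s3y* was above background on 4 Treg arrays too, at 6.99 on Treg HAR MACS 1, 6.38 on Treg HAR MACS 2, 6.44 on Treg hi FACS 2 and 6.97 on Treg hi MACS 2, while every Treg array had *Xist*. Over all genes tested, 2 Treg HAR arrays stood apart from the others of their group on the second principal component, FACS 1 at -15.2 and MACS 2 at -17.1, with FACS 2 at 3.7 and MACS 1 at 4.2.

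**Figure D1:**
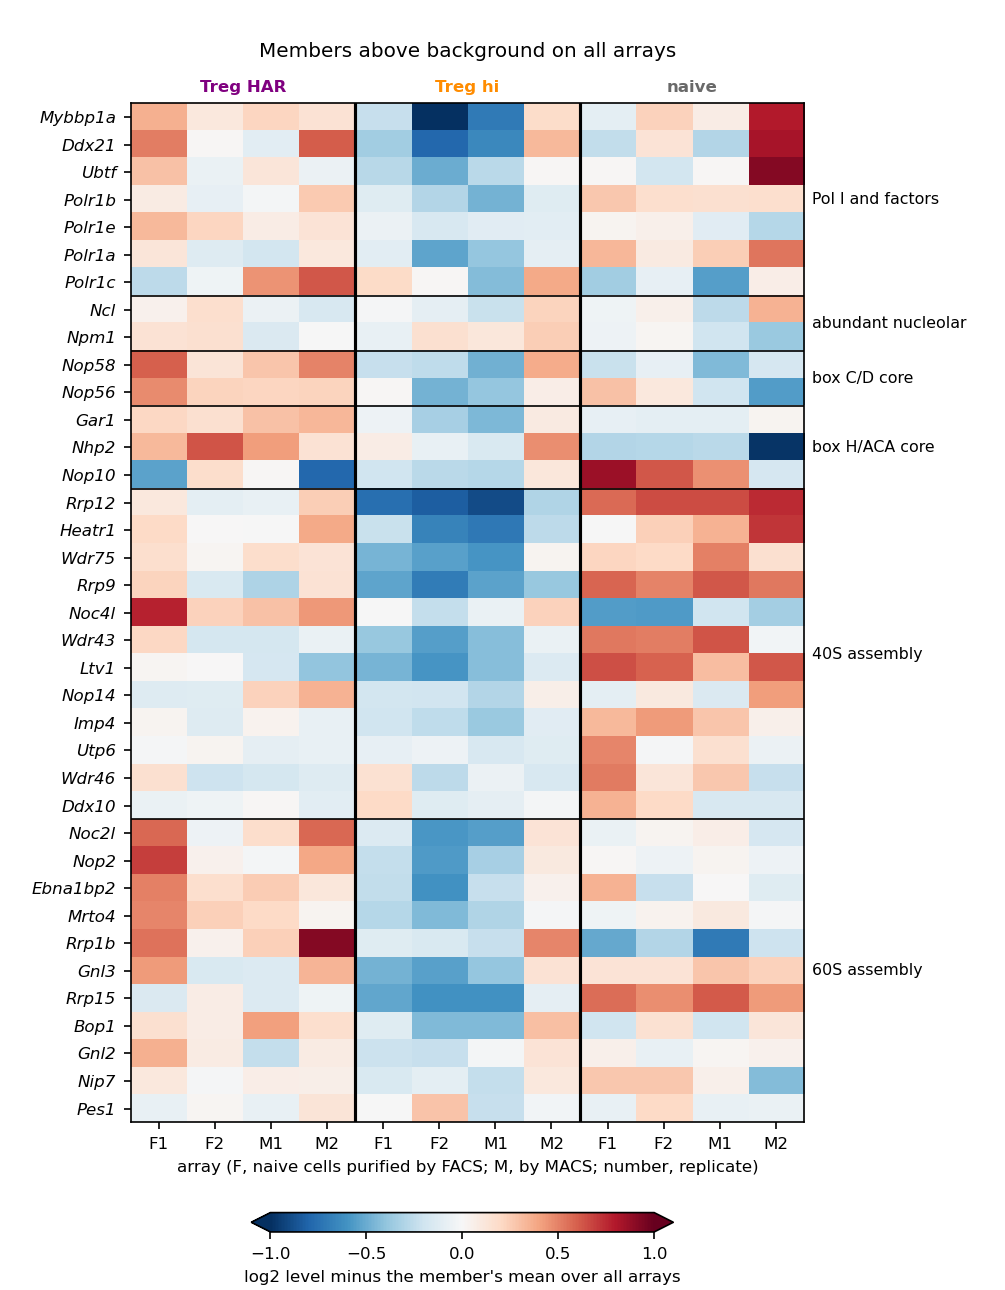
Log2 level of each of the 37 members above background on all 12 arrays, minus that member's mean over the arrays. Columns are single arrays in the order Treg HAR, Treg hi and naive, members are grouped by role, and colours are clipped at 1 on either side. Treg hi FACS 2 and MACS 1 are mostly blue, and Treg hi MACS 2 is paler or red.

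The comparison of Treg HAR with Treg hi cells asks how cells made with harmine and low TGFb differ from those made with high TGFb. Most members had a higher mean in Treg HAR cells, by small amounts. The difference was positive for 42 and negative for 10 of the 52 members tested, with a median log2 difference of 0.22, against a median of -0.001 and 49.6% positive over all 15582 genes tested. Among the 37 members above background on every array, 32 were positive and the median was 0.33. The values over all genes include dim ones, since 10272 of the 15582 were above background on at least 1 array. Genes as bright as the members were not compared. With p-values adjusted over all genes tested by limma, 1 member rose (0.173% of all genes did) and 0 members fell (0.295% of all genes did). At an unadjusted p under 0.05, 20 members were higher, against 5.54% of all genes, and 0 were lower, against 5.26%, by limma. The 4 Treg HAR arrays all lay above the 4 Treg hi arrays for 9 members, *Gar1*, *Heatr1*, *Ebna1bp2*, *Polr1e*, *Nop56*, *Mrto4*, *Rrp12*, *Rrp9* and *Polr1b*. Over all genes 3.41% did so. Members were chosen with earlier results of these data known, so these counts describe the set and do not test it. A list of 79 other assembly factors, read below, had a median of 0.08. Leaving out single arrays gave medians of the members between 0.14 and 0.31.

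**Figure D2:**
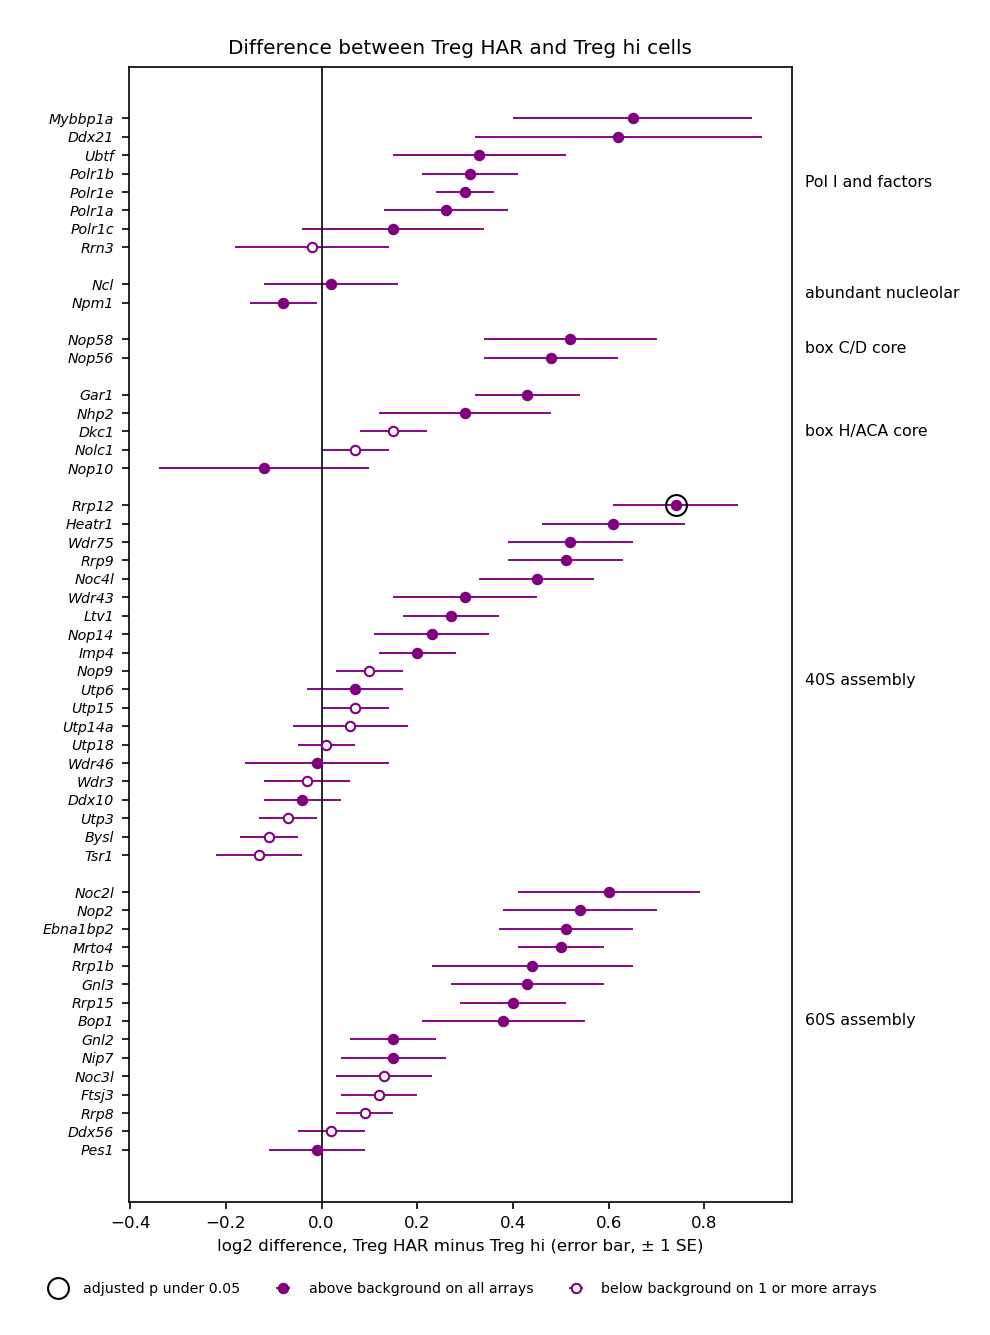
Log2 difference, Treg HAR minus Treg hi, with its standard error, for the 52 members tested, by role. Filled points were above background on all 12 arrays. *Rrp12*, ringed, is the member past an adjusted p of 0.05, and the largest assembly and polymerase differences lie between 0.5 and 0.74.

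*Rrp12*, a factor that helps pre-40S particles mature and leave the nucleus, was the member that passed. Its log2 levels were 8.25, 8.05, 8.07 and 8.39 in Treg HAR cells (FACS 1, FACS 2, MACS 1, MACS 2), against 7.39, 7.32, 7.25 and 7.85 in Treg hi cells. The groups did not overlap, and Treg hi MACS 2 stood closest to Treg HAR. The log2 difference was 0.74 ± 0.13 (SE, n = 4 arrays each), or 1.67-fold, with an adjusted p of 0.0478 (limma). The call was lost on leaving out any one of 11 of the 12 arrays, with adjusted p between 0.0174 and 0.193 over the 12, although the difference stayed between 0.59 and 0.88, and it was kept without Treg hi MACS 2. Over all 32 alternative settings with an adjusted p, 5 kept the call and the values ran between 0.0171 and 1.

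Other small-subunit factors with large differences did not pass. *Heatr1*, a UTP protein that joins transcription to early processing, had log2 levels of 10.05, 9.86, 9.85 and 10.23 in Treg HAR cells, against 9.63, 9.19, 9.14 and 9.59 in Treg hi cells. Every Treg HAR array was above every Treg hi array. The difference was 0.61 ± 0.15 with an adjusted p of 0.14 (limma), and a second *Heatr1* probe gave 0.54. *Rrp9*, a protein of the U3 snoRNP, had 7.94, 7.56, 7.41 and 7.86 in Treg HAR cells, against 7.19, 7.02, 7.18 and 7.34 in Treg hi cells, again without overlap (0.51 ± 0.12, adjusted p = 0.111). *Wdr75*, another early UTP protein, differed by 0.52 ± 0.13 and *Noc4l*, which works with *Nop14*, by 0.45 ± 0.12. *Imp4*, whose promoter is printed above, had a difference of 0.20 ± 0.08. The 20 small-subunit members tested ran from *Rrp12* to *Tsr1* at -0.13 ± 0.09 (above background on 4 arrays), and 14 were positive, with a median of 0.09. *Wdr46*, *Wdr3*, *Ddx10*, *Utp3* and *Bysl* were the other negative ones, and of these only *Wdr46* and *Ddx10* were above background on every array. Some positive ones were dim too, with *Utp15* above background on 1 array, *Utp18* on 0, and *Utp14a* and *Nop9* on 11.

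Large-subunit factors were positive in 14 of 15 members tested, with a median of 0.38, and 0 passed, while 7 had an unadjusted p under 0.05 (limma). The positive ones included dim members, with *Rrp8* and *Ddx56* above background on 0 arrays, *Ftsj3* on 2 and *Noc3l* on 8. *Noc2l*, which escorts early pre-60S particles, was largest. Its log2 levels were 9.58, 8.95, 9.18 and 9.58 in Treg HAR cells, against 8.87, 8.42, 8.45 and 9.14 in Treg hi cells. FACS 1 and MACS 2 were the high Treg HAR arrays, and Treg hi MACS 2 reached into the Treg HAR range. The difference was 0.60 ± 0.19 (adjusted p = 0.252). *Mrto4*, which holds the place of the stalk protein P0 on pre-60S particles, had 8.78, 8.53, 8.49 and 8.32 in Treg HAR cells, against 8.01, 7.85, 7.99 and 8.28 in Treg hi cells. The groups did not overlap, and the adjusted p of 0.0549 was the closest to the threshold among members that missed it (0.50 ± 0.09). *Nop2*, with its E-box, differed by 0.54 ± 0.16 and *Ebna1bp2*, a pre-60S scaffold protein, by 0.51 ± 0.14. *Rrp1b*, a nucleolar partner of protein phosphatase, differed by 0.44 ± 0.21, *Gnl3* (nucleostemin) by 0.43 ± 0.16, *Rrp15* by 0.40 ± 0.11 and *Bop1* by 0.38 ± 0.17. *Pes1*, which forms the PeBoW complex with *Bop1* and *Wdr12*, was at -0.01 ± 0.10, and *Wdr12* was below background on every array.

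RNA polymerase I and its factors were positive in 7 of 8 members, with a median of 0.31, and 0 passed (3 had an unadjusted p under 0.05 by limma). *Mybbp1a*, a nucleolar regulator of polymerase I transcription, had log2 levels of 9.61, 9.36, 9.47 and 9.40 in Treg HAR cells, against 9.03, 8.20, 8.55 and 9.44 in Treg hi cells. Treg hi arrays were far more spread, and MACS 2 lay within the Treg HAR range. The difference was 0.65 ± 0.25 (adjusted p = 0.352). The helicase *Ddx21* differed by 0.62 ± 0.30, but its other probe, also above background on every array, gave -0.04. The transcription factor *Ubtf* differed by 0.33 ± 0.18 and the subunits *Polr1b* by 0.31 ± 0.10 and *Polr1a* by 0.26 ± 0.13, with *Polr1a* at 0.16, 0.37 and 0.25 on its 3 other probes above background. *Polr1e*, a subunit that docks initiation factors, had 9.08, 8.97, 8.83 and 8.89 in Treg HAR cells, against 8.69, 8.59, 8.64 and 8.65 in Treg hi cells. These groups were tight and apart, and the difference of 0.30 ± 0.06 had an adjusted p of 0.084. *Polr1c*, shared with polymerase III, was at 0.15 ± 0.19, and the initiation factor *Rrn3* at -0.02 ± 0.16 with signal above background on 9 arrays.

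In the box C/D core, which guides methylation, *Nop58* had log2 levels of 11.16, 10.69, 10.84 and 11.06 in Treg HAR cells, against 10.33, 10.31, 10.08 and 10.93 in Treg hi cells. Treg hi MACS 2 alone reached the Treg HAR range. *Nop58* differed by 0.52 ± 0.18 and its partner *Nop56* by 0.48 ± 0.14 (adjusted p of 0.286 and 0.217). In the box H/ACA core, which guides pseudouridylation, *Gar1* had 10.98, 10.93, 11.06 and 11.10 in Treg HAR cells, against 10.72, 10.44, 10.32 and 10.86 in Treg hi cells, with no overlap (0.43 ± 0.11, adjusted p = 0.154). *Nhp2* was at 0.30 ± 0.18, and at 0.14 without Treg hi MACS 1. Leaving out that array gave 0.31 for *Nop58* and 0.26 for *Rrp1b*. *Nop10*, the smallest protein of the same core, had 9.59, 10.30, 10.14 and 9.34 in Treg HAR cells, against 9.93, 9.86, 9.84 and 10.24 in Treg hi cells, so that its FACS 1 and MACS 2 arrays were the low ones. Its difference was -0.12 ± 0.22. The pseudouridine synthase *Dkc1* was above background on 1 array and its nucleolar partner *Nolc1* on none.

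The abundant nucleolar proteins had differences near 0. *Npm1* (nucleophosmin) had log2 levels of 13.17, 13.19, 12.88 and 13.02 in Treg HAR cells, against 12.95, 13.19, 13.14 and 13.27 in Treg hi cells. The groups overlapped throughout, with a difference of -0.08 ± 0.07. *Ncl* (nucleolin) was at 0.02 ± 0.14, and at -0.11 on its second probe.

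**Figure D3:**
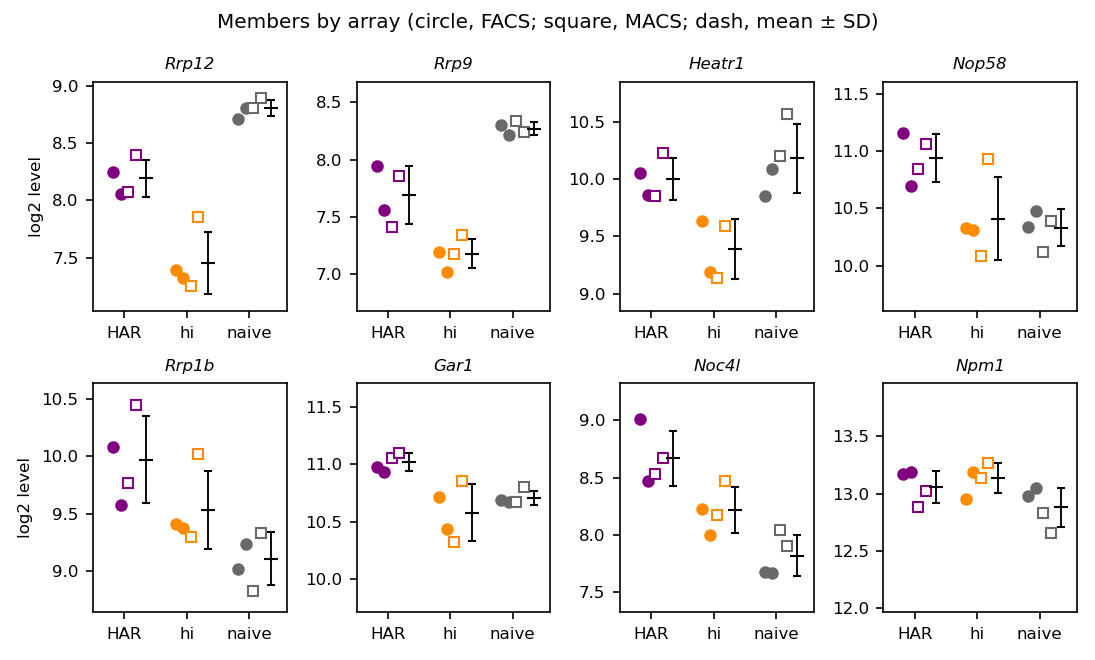
Log2 levels of 8 members on every array, in Treg HAR, Treg hi and naive cells, with the mean and SD of each group. Circles are FACS and squares MACS arrays, and each panel spans 2 log2 units. *Rrp12* in Treg HAR cells lies between the other groups, while *Npm1* overlaps in all of them.

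The difference was not the same on all arrays. The median deviation of the 37 bright members from their own means was 0.20, 0.02, 0.02 and 0.14 on the Treg HAR arrays, -0.18, -0.33, -0.37 and 0.06 on the Treg hi arrays, and 0.03, 0.10, 0.03 and 0.03 on the naive arrays (FACS 1, FACS 2, MACS 1, MACS 2). The corresponding median over all genes lay between -0.01 and 0.00 on every array. Treg hi MACS 2 was the highest Treg hi array for 31 of the 37 members, and its median was above those of Treg HAR FACS 2 and MACS 1. Treg HAR FACS 1 was the highest Treg HAR array for 17 members, and FACS 1 with MACS 2, the arrays that stood apart over all genes, were the upper pair for 15. Without both of them 0 members passed and the median over the 52 members was 0.17, with *Rrp1b* at 0.15, *Noc4l* at 0.28 and *Nop58* at 0.35. Without Treg hi MACS 2, 5 members passed (*Gar1*, *Wdr75*, *Mrto4*, *Rrp12* and *Rrp15*) and the median was 0.31. Without Treg HAR FACS 2, 2 members passed, *Mrto4* and *Noc4l*.

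**Figure D4:**
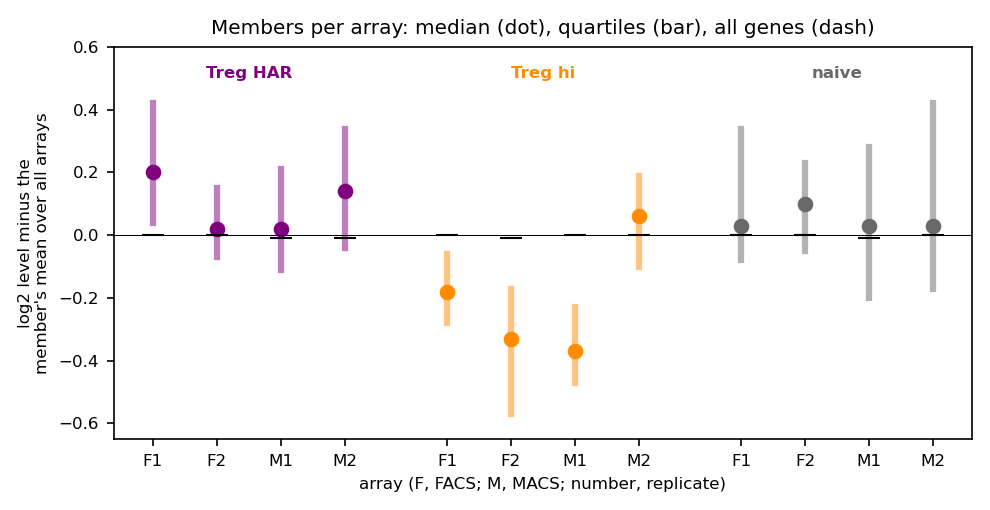
Median (dot) and quartiles (bar) over the 37 bright members of the log2 level minus the member's mean, for each array, with the median of all genes as a dash. Treg hi FACS 1, FACS 2 and MACS 1 have medians of -0.18 to -0.37, and every other array is between 0.02 and 0.20.

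Within each purification the sign of the median was the same. Over the 37 bright members the median difference between Treg HAR and Treg hi cells was 0.47 among FACS arrays, with 34 positive, and 0.27 among MACS arrays, with 31 positive. Among MACS arrays, Treg hi MACS 2 had a median deviation of 0.06, above Treg HAR MACS 1 at 0.02. Some single members changed sign, such as *Polr1c* (-0.25 among FACS and 0.56 among MACS arrays) and *Gnl2* (0.44 and -0.14). The test of whether the difference itself depended on purification gave 0 members past the threshold and a lowest adjusted p of 0.917 (limma). At an unadjusted p under 0.05 by limma there were 5 members (9.62%), against 4.93% of all genes. All 5 had the more positive difference among FACS arrays. Markers that moved between these Treg groups included the Treg list, whose summed signal was 7344 to 9799 in Treg HAR and 4689 to 5783 in Treg hi cells (6 of 6 markers with a probe). Of the 6 markers 5 were positive and 1 negative, from -0.28 to 1.06, and 1 passed. *Gpr83* was at log2 levels of 11.48 to 11.90 in Treg HAR and 10.25 to 10.91 in Treg hi cells. *Ctla4*, at 8.46 to 10.57 and 9.44 to 10.16, and *Foxp3* overlapped between the groups. The 9 of 10 CD8 T and NK cell markers summed to 3023 to 3775 and 2370 to 2699 in the same order, though *Cd8a* was below background on every array. *Cd8b1*, *Prf1* and *Nkg7* were the markers with higher means among those above background on every array, while *Klrd1* averaged 6.23 in Treg HAR and 7.02 in Treg hi cells (-0.79 ± 0.18). The 5 of 7 naive T cell markers with a probe were all negative, with a median of -0.34, and summed to 1163 to 2035 in Treg HAR and 1887 to 2575 in Treg hi cells. Of these *Ccr7* differed by -0.69 ± 0.23 and *Klf2* by -0.61 ± 0.29, and both were lowest on Treg HAR FACS 1 and MACS 2. The B cell list was positive for 4 and negative for 4 markers. *Cd74* alone fell, with means of 7.81 in Treg HAR and 8.33 in Treg hi cells (-0.52 ± 0.09, adjusted p = 0.0473 by limma), and *Pax5* was below background on every array. The part of these markers in the result was not tested.

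Compared with naive cells, Treg HAR cells had some members higher and some lower. With p-values adjusted over all genes by limma, 6 members rose (13.9% of all genes did) and 7 fell (13.8% of all genes did), and the median over the 52 members was -0.02, against -0.008 over all genes. Both shares are close to those of all genes. The members that rose were *Rrp1b* (0.86 ± 0.21), *Noc4l* (0.84 ± 0.12), *Nhp2* (0.84 ± 0.18), *Nop58* (0.60 ± 0.18), *Nop9* (0.34 ± 0.07), a factor of the small subunit, and *Polr1e* (0.27 ± 0.06). Those that fell were *Nop10* (-0.72 ± 0.22), *Ltv1* (-0.68 ± 0.10), an export adaptor of the small subunit, *Rrp12* (-0.61 ± 0.13), *Rrp9* (-0.58 ± 0.12), *Rrp15* (-0.57 ± 0.11), *Wdr43* (-0.47 ± 0.15) and *Imp4* (-0.31 ± 0.08). The call of *Nop10* was kept in 15 of 32 alternative settings, that of *Wdr43* in 13 and that of *Imp4* in 18. Those of *Ltv1*, *Rrp9*, *Rrp15* and *Rrp12* were kept in 28 to 32. With arrays scaled to a common median in place of quantile normalization, 8 members were higher and 4 lower, and the split over all genes was 2530 higher and 1672 lower, against 2161 and 2151.

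Treg hi cells had more members lower than naive cells. Here 4 members rose (12.9% of all genes did) and 13 fell (13.3% of all genes did), by limma. The difference was negative for 39 of 52 members, with a median of -0.14, against -0.005 over all genes. *Rrp12*, at the Treg hi levels given above, had 8.71, 8.80, 8.80 and 8.89 on the naive arrays. Every naive array was above every Treg hi array, and the difference of -1.35 ± 0.13 was the largest of any member (adjusted p = 3.66e-05). *Rrp9* had 8.30, 8.21, 8.34 and 8.24 on the naive arrays, also above all Treg hi arrays (-1.09 ± 0.12, adjusted p = 7.92e-05). *Rrp15*, a pre-60S factor, had 7.55, 7.47, 7.47 and 7.98 in Treg hi cells, against 8.63, 8.54, 8.69 and 8.50 in naive cells (-0.97 ± 0.11, adjusted p = 0.000114). For *Rrp15* too the groups did not overlap. *Ltv1* fell by 0.95 ± 0.10, *Heatr1* by 0.79 ± 0.15, *Wdr43* by 0.77 ± 0.15, *Wdr75* by 0.67 ± 0.13 and *Polr1a* by 0.58 ± 0.13 on the log2 scale. *Gnl3* and *Imp4* were both at -0.50, *Polr1b* at -0.44, *Noc3l* at -0.36 and *Mrto4* at -0.28. Of the 13, 7 are small-subunit factors, 4 large-subunit factors and 2 polymerase I subunits. The members that rose were *Nhp2* (0.54 ± 0.18), *Noc4l* (0.39 ± 0.12), *Npm1* (0.26 ± 0.07) and *Nop9* (0.24 ± 0.07), and this count fell to between 0 and 3 on leaving out any single array. *Npm1* was at 0.06 among FACS and 0.46 among MACS arrays, *Nhp2* at 0.29 and 0.79, and *Noc4l* at 0.44 and 0.35. *Nop9* had 6.82 and 6.81 on the Treg hi MACS arrays, against 6.25 and 6.10 on the naive ones. On FACS arrays *Nop9* was lower in Treg hi cells, at 6.54 and 6.63 against 6.84 and 6.67.

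The comparisons with naive cells share the naive arrays with each other and the Treg arrays with the comparison between Treg groups, so their values are set side by side without a test of likeness. *Rrp12* was at -0.61 in Treg HAR minus naive and at -1.35 in Treg hi minus naive, *Heatr1* at -0.18 and -0.79, *Wdr75* at -0.14 and -0.67, *Gnl3* at -0.07 and -0.50, and *Polr1a* at -0.32 and -0.58. *Nop10* was at -0.72 and -0.60, and *Nhp2* at 0.84 and 0.54. Among the 37 bright members the median of Treg hi minus naive was -0.37 for FACS and -0.16 for MACS arrays, and that of Treg HAR minus naive 0.06 and -0.01. The naive arrays' marker sums given above moved with both comparisons, and their part in them was not tested. Without the naive arrays with *Eif2s3y* signal, 3 members were higher and 7 lower in Treg HAR than in naive cells. In Treg hi against naive cells, 0 were then higher and 12 lower. Over all genes that setting gave 1658 higher and 1817 lower for Treg HAR, and 1535 higher and 1712 lower for Treg hi cells.

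**Figure D5:**
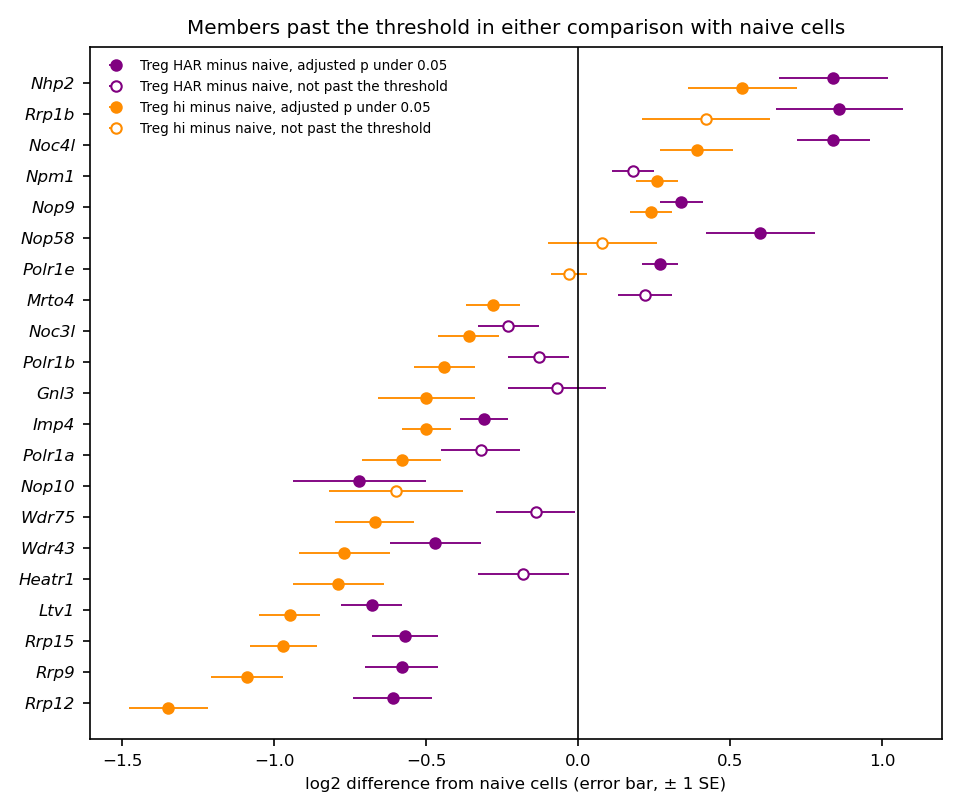
Log2 difference from naive cells, with standard errors, of the 21 members past an adjusted p of 0.05 in either comparison. Treg HAR points are above Treg hi points in each pair, and open points did not pass. *Rrp12*, *Rrp9*, *Rrp15* and *Ltv1* are lowest, and *Nhp2*, *Noc4l* and *Rrp1b* highest.

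Other genes of the pathway were read from lists of factors that are not members. Of 79 other ribosome assembly factors tested, 58 were positive in Treg HAR minus Treg hi, with a median of 0.08. None passed, and 16 were higher and 0 lower at an unadjusted p under 0.05 (limma). Over all genes 5.54% were higher and 5.26% lower at that limit, and these shares apply to the lists below too. *Ppan*, a large-subunit factor, was at 0.71 ± 0.19 and the export adaptor *Nmd3* at 0.50 ± 0.13, with *Ddx52*, the homolog of a yeast helicase of small-subunit assembly, lowest at -0.30 ± 0.14. Against naive cells, 5 of the 79 rose and 18 fell in Treg HAR cells, and 1 rose and 25 fell in Treg hi cells. Over all genes 13.9% rose and 13.8% fell in Treg HAR cells, and 12.9% rose and 13.3% fell in Treg hi cells. *Mdn1*, the giant ATPase of pre-60S particles, fell by 1.38 ± 0.11 in Treg HAR and by 1.59 ± 0.11 in Treg hi cells on the log2 scale. *Pwp2*, a small-subunit factor, fell by 1.03 ± 0.08 and 1.30 ± 0.08 in the same order.

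Of 13 genes tested from the list of RNA exosome subunits and cofactors, which trim ribosomal RNA, 10 were positive between Treg groups (median 0.17), 4 were higher at an unadjusted p under 0.05 and 0 passed. *Exosc10* was at 0.36 ± 0.09, *Exosc5* at 0.34 ± 0.08 and *Exosc8* lowest at -0.26 ± 0.30. Among 9 snoRNP assembly factors, 0 passed and 2 had an unadjusted p under 0.05, with the helicases *Ruvbl1* at 0.49 ± 0.16 and *Ruvbl2* at 0.36 ± 0.11 and the box C/D protein *Snu13* at -0.10 ± 0.18. *Ruvbl2* rose against naive cells by 1.02 ± 0.11 in Treg HAR and by 0.66 ± 0.11 in Treg hi cells. The 5 other polymerase I genes tested were between -0.06 (*Taf1d*) and 0.11 (*Taf1a*, with *Ttf1* at 0.04), and 0 had an unadjusted p under 0.05.

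*Myc* itself was dim, above background on 10 arrays, at mean log2 levels of 6.54 in Treg HAR, 6.42 in Treg hi and 6.23 in naive cells. It rose against naive cells in Treg HAR by 0.30 ± 0.07 (adjusted p = 0.00659) and was at 0.11 ± 0.07 between Treg groups. Its partner *Max* was at -0.19 ± 0.17 between Treg groups, the repressor partners *Mxi1* at 0.17 ± 0.10 and *Mxd4* at -0.45 ± 0.24, and of 9 Myc network genes 0 passed and 1 had an unadjusted p under 0.05. Against naive cells, 3 of the 9 rose in Treg HAR and 3 in Treg hi cells (13.9% and 12.9% of all genes did), and 0 fell in either. The 6 proliferation genes tested all rose in both Treg groups against naive cells, by medians of 2.51 in Treg HAR and 2.38 in Treg hi cells. Between Treg groups 0 of them passed and 2 had an unadjusted p under 0.05, with a median of -0.02 and *Mcm2* at 0.53 ± 0.13.

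Of the 56 members with a probe, 29 had more than 1, with 44 further probes, of which 15 (in 12 members) were above background on all arrays. In Treg HAR minus Treg hi, 12 of these 15 had the sign of the main probe and 3 the opposite sign, for *Ddx21*, *Ncl* and *Ddx10*. *Nop2* was at 0.41 on its second probe, *Noc4l* at 0.38, *Mybbp1a* at 0.43, *Ubtf* at 0.31 and *Rrp1b* at 0.48 and 0.35. Against naive cells, those *Rrp1b* probes were at 0.86 and 0.37 in Treg HAR and at 0.37 and 0.02 in Treg hi cells. Second probes of *Noc4l* and *Imp4* were at 0.68 and -0.15 in Treg HAR and at 0.29 and -0.36 in Treg hi cells. Those of *Nop10* and *Nhp2*, above background on 7 and 5 arrays, were at 0.15 and 0.11 in Treg HAR and at 0.19 and 0 in Treg hi cells. *Gar1* and *Ebna1bp2* had second probes above background on 10 and 7 arrays, at 0.14 and 0.02 between Treg groups. Against naive cells these were at -0.32 and -0.11 in Treg HAR and at -0.46 and -0.14 in Treg hi cells.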

How the data were processed

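The authors collected probe signals with GenomeStudio and deposited non-normalized intensity values of 12 arrays, whose mean was 257 on each array, so they had been scaled between arrays. They also deposited log2 values made with lumi (background correction, variance stabilization, robust spline normalization), used here as an alternative only. Here limma 3.58.1 (R 4.3.3) corrected the background of the deposited intensities by normexp with an offset of 50, followed by quantile normalization and a log2 transformation.

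Of 45281 probes, 34885 were assigned to 1 gene, 18 to several and 10378 to none. The last 2 kinds were left out. The probe with the highest mean intensity stood for a gene, and 15582 of 19057 genes passed the filter. Background was the peak of each array's log2 density plus 3 SDs of the values below it.

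limma was fitted to all 12 arrays with 6 group means (treatment by purification). A treatment comparison averaged its FACS and its MACS difference and was two-sided, with Benjamini-Hochberg adjustment over all genes tested and a threshold of 0.05. SE is the moderated standard error and SD that of arrays. The script was tested on simulated data. The study's methods name a Student test, run as an alternative beside other corrections, normalizations, filters, probes, designs and left-out arrays.

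The named members were those past the threshold between Treg groups, the brightest, highest and lowest of each role, the 5 highest and 5 lowest against naive cells, and those whose probes differed in sign. Members, lists and this rule were chosen with earlier results of these data known. Probe sequences were not used here.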

Additional observations from a re-analysis of the deposited data

Results flagged for a closer look

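Single arrays stood apart from the other 3 of their treatment in 11 of 138 sets of 4 arrays, by a gap to the nearest array above the limit of Dixon's test, which chance passes in about 1 in 20 sets. In Treg HAR cells this was *Nop56* on FACS 1, at a log2 level of 8.99 with the others at 8.73 to 8.74. In Treg hi cells it was MACS 2 for *Rrp1b* at 10.02 (others 9.30 to 9.41) and for *Rrp15* at 7.98 (others 7.47 to 7.55), the array that was highest for most members.

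The other 8 were naive arrays. MACS 2 was high for *Gar1* at 10.80 (others 10.67 to 10.69) and *Ubtf* at 9.38 (others 8.28 to 8.47) and low for *Nhp2* at 9.0 (others 9.69 to 9.71). MACS 1 was high for *Wdr75* at 9.38 (others 9.03 to 9.09) and low for *Ltv1* at 7.50 (others 7.78 to 7.83) and for *Wdr3* at 5.90 (others 6.25 to 6.29), a probe above background on 5 arrays. FACS 1 was high for *Polr1b* at 7.0 (others 6.89 to 6.90), and FACS 2 for *Pes1* at 6.95 (others 6.68 to 6.69).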

How the results depend on the processing

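Between Treg HAR and Treg hi cells, the count of members past the threshold was 1 and stayed 1 with an offset of 16 or a stricter filter on dim probes. It was 0 without background correction, with scaling to a common median, with no normalization between arrays, with the deposited lumi values, without the filter, with the mean of all probes, with a block by *Eif2s3y* signal, on arrays without or with that signal alone, on FACS or MACS arrays alone, without the naive arrays with *Eif2s3y* signal, without Treg HAR FACS 1 and MACS 2, and with the methods' t-test after adjustment. It was 2 with treatment alone, 6 without Treg HAR FACS 2 and MACS 1, and 17 with the methods' t-test at its nominal threshold. Over all genes the counts higher in these settings were 47, 302 and 800, against 27 in the main fit. Leaving out single arrays gave 0 to 5 members and medians of 0.14 to 0.31, and the stricter filter a median of 0.30. The difference was positive for 41 to 44 of the 52 members wherever all 52 were tested, and the count lower was 0 in every setting.

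In Treg HAR against naive cells, the count higher (6) was 1 on arrays with *Eif2s3y* signal alone, 2 on MACS arrays, 3 without Treg HAR FACS 1 and MACS 2, 3 without the naive arrays with *Eif2s3y* signal, and 5 to 7 on leaving out single arrays. The count lower (7) was 4 with scaling to a common median, with no normalization, without either pair of Treg HAR arrays and with the adjusted t-test, 1 on arrays with *Eif2s3y* signal, 1 on MACS arrays, and 4 to 7 on leaving out single arrays, with 4 without Treg HAR MACS 2. The median ran from -0.06 to 0.03 on leaving out single arrays.

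In Treg hi against naive cells, the count higher (4) was 2 without background correction, with lumi values, with treatment alone, with the block by *Eif2s3y* signal and on MACS arrays, 1 with the mean of all probes and with the nominal t-test, and 0 with the adjusted t-test, on FACS arrays, without the naive arrays with *Eif2s3y* signal and on arrays with or without that signal alone. Leaving out single arrays gave 0 to 3, with 0 or 1 without any one of naive FACS 1, FACS 2 and MACS 2 and Treg hi FACS 1, FACS 2 and MACS 2. The count lower (13) was 4 on arrays with *Eif2s3y* signal, 5 on MACS arrays and 10 to 14 on leaving out single arrays. The median was -0.27 with an offset of 16, -0.25 with the stricter filter, -0.28 on FACS arrays and -0.22 to -0.10 on leaving out single arrays. Settings on 1 purification or without pairs of arrays use fewer arrays, and for the others the cause was not tested. Over all genes, MACS arrays alone gave 1081 higher and 1104 lower in Treg HAR than in naive cells, against 2161 and 2151. For Treg hi cells they gave 998 higher and 961 lower, against 2013 and 2066.

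Replicate numbers were not used to pair the arrays, since 6 of 15 pairs of groups, and not every pair, had a correlation of replicate differences over 0.1 (range -0.623 to 0.425). Naive FACS, naive MACS and Treg hi MACS arrays were over it with one another, at 0.425, 0.358 and 0.263. With a replicate block, 0 members passed between Treg groups, and over all genes 11 were higher and 29 lower, against 27 and 46. With the Treg HAR numbers crossed in the block, 0 members passed between Treg groups and 1 was higher in Treg hi than in naive cells. The test of dependence on purification gave 0 members in every setting run. A slide block was not run, since the labels give no slide. For single named members, 66 differences were refitted in up to 33 settings. They kept direction and side of the threshold 1887 times, lost the threshold 144 times, gained it 40 times, and changed sign 104 times without passing in either fit. Members at or below background have compressed differences.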
